A study of Mus musculus with 24 samples.

Results

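The Fos, Jun and Egr immediate early factors were followed across an RNA-seq experiment in 3T9 cells, an immortalised line of mouse fibroblasts. The members were the 10 listed genes Fos, Fosb, Fosl1, Fosl2, Jun, Junb, Jund, Egr1, Egr2 and Egr3, and each was found by its symbol among the 21671 genes of the deposited RPKM table (reads per kilobase of gene and M reads of the library, so levels of different genes can be set side by side). The cells had been infected with an empty vector (EV) or with BP-MycER-WT, BP-MycER-HEA or BP-MycER-RA, here WT, HEA and RA. MycER is Myc joined to a ligand-binding part of the oestrogen receptor, and OHT is the ligand that switches such fusions on. HEA and RA are mutant forms of Myc made for a study of sequence-specific and non-specific DNA binding; the sources used here do not name the residues changed. Every group received OHT, for 4 h or 8 h, the EV cells included, and there were 3 libraries in each of the 8 groups, 24 in total. No library without OHT was used here, so the comparisons are with EV cells under OHT. The sources used here name neither the promoter driving the constructs nor the number of infections behind a group. Since the labels do not say whether replicates were separate cultures, p-values reflect the spread among these libraries alone, and that spread may be technical.

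AP-1 is a dimer of basic leucine zipper proteins, typically a Fos family member with a Jun family member, that binds the sequence TGANTCA. The Egr proteins are zinc finger factors that bind GC-rich sites. In fibroblasts many of these genes are transcribed within minutes of serum or growth factor stimulation, through ERK signalling to the serum response factor (SRF) with its ternary complex partners and to CREB, and many of their mRNAs decay quickly. The cultures analysed here grew in medium with serum, and the labels describe no starvation or restimulation, so the values below are levels in growing cells.

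Reads per library, recovered from the steps of the RPKM values, ran from 9.82 to 12.8 M (median 10.9). Esr1, which carries the fusion's receptor part, averaged 0.277 RPKM in the EV cells at 4 h, 0.189 at 8 h, and between 10.2 and 11.9 RPKM in the 6 MycER groups, as the labels have it. The fibroblast markers summed to 511 to 655 RPKM per library, with 7 of 8 at a mean of at least 1 RPKM. Epithelial, endothelial and muscle markers each summed to at most 0.600 RPKM. Of the leukocyte list, 3 of 4 genes were measured and summed to 8.34 to 16.6 RPKM, nearly all of it Cd68 (mean 10.9 RPKM). Their part in the results was not tested.

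Within groups, 2 libraries of the WT form stood apart for the listed factors. WT replicate 3 at 8 h held the highest value of its group for 10 of the 10 genes. WT replicate 3 at 4 h held the lowest value for 7 of them. Both, with EV replicate 2 at 4 h, were also the 3 libraries farthest from their group over all tested genes. The heat map of deviations shows a further library, HEA replicate 1 at 8 h, that was low for Egr1, Egr2 and Fos. Results that rest on these libraries are given with and without them.

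**Figure D1:**
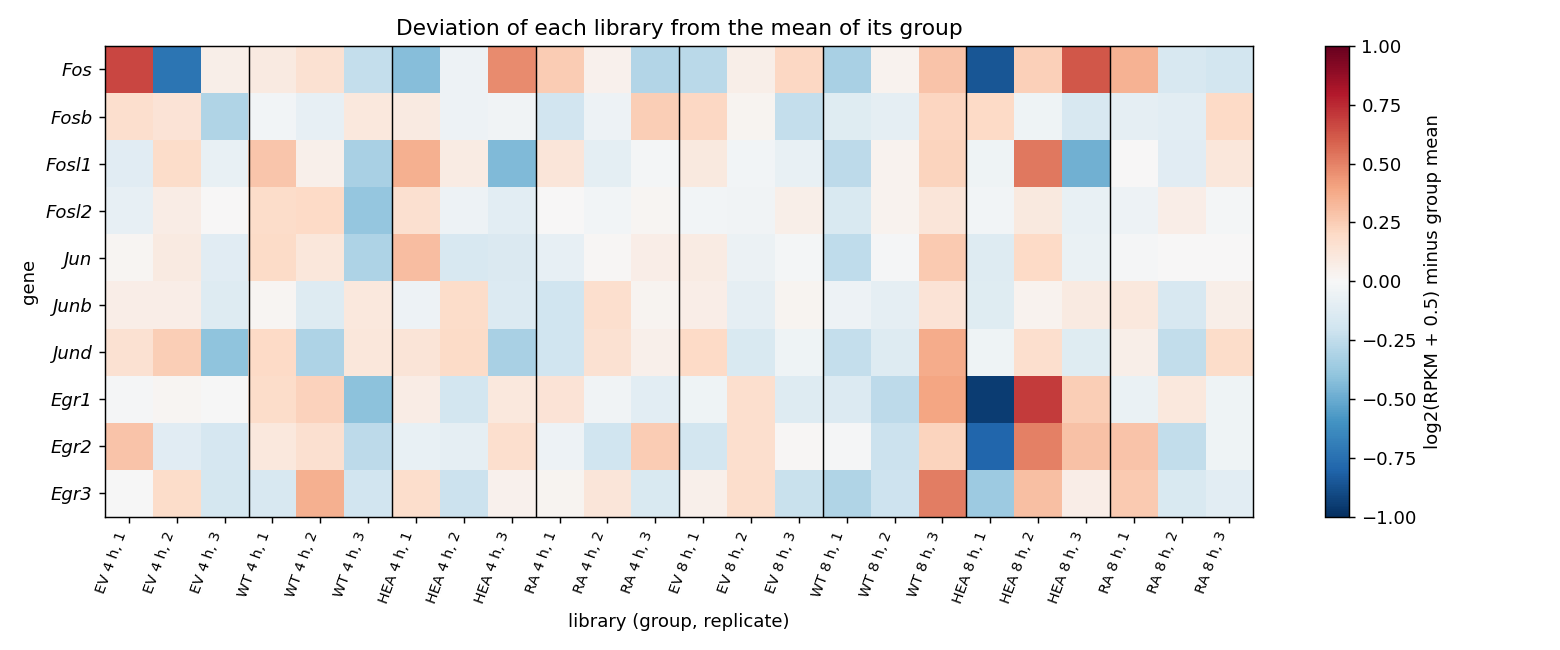
Heat map of each library's log2(RPKM + 0.5) minus the mean of its group, for the 10 genes (rows) in 24 libraries (columns, grouped by 3). WT replicate 3 at 8 h is above its group mean in 10 of 10 rows, and HEA replicate 1 at 8 h is below it for Egr1, Egr2 and Fos.

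The 10 genes were expressed at very different levels per length. As means of the 24 libraries, Junb stood at 69.1 RPKM, Fosl2 at 53.7, Jun at 52.0, Jund at 29.1, Egr1 at 20.0, Fosl1 at 7.37, Egr2 at 4.83, Fos at 4.45, Egr3 at 2.29 and Fosb at 0.627. Junb exceeded all but 5.10% of the 12268 tested genes, while Fos was below 79.6% of them. The depth behind the low members was limited: Fosb rested on 12 to 49 reads per library and Fos on 22 to 259, against 2118 to 4512 for Fosl2. The spread between libraries was widest for Fos and Egr2, whose highest library was 11.9 and 11.4 times the lowest. For Junb, Jun and Fosl2 that ratio was 1.54, 1.59 and 1.76. Genes entered the test if they reached 1 RPKM in at least 3 libraries; all 10 did, Fosb only just, in exactly 3 libraries (EV replicates 1 and 2 at 4 h and RA replicate 3 at 8 h).

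**Figure D2:**
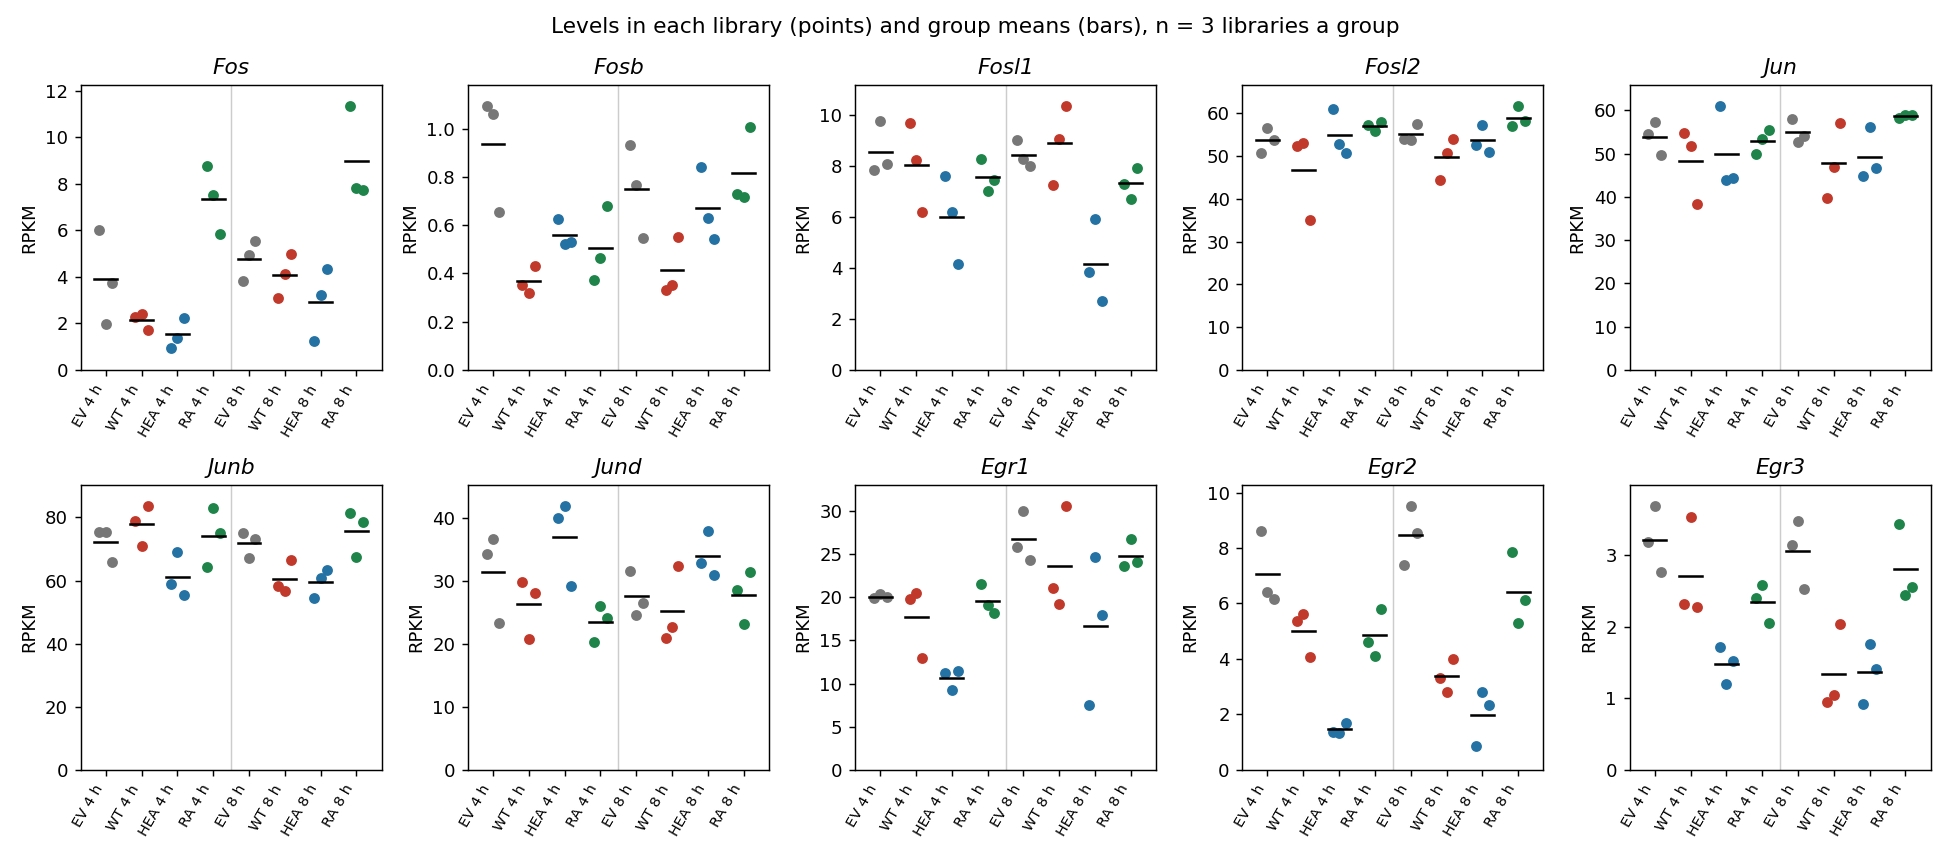
RPKM of each of the 10 genes (panels, linear axis from 0) in the 3 libraries of each group (points, replicates 1 to 3 from left to right) with the group mean (bar). Egr2 and Egr3 are low in HEA at both times and in WT at 8 h, and Fos is high in RA.

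Against EV, members of the list were called lower in HEA and, in smaller number, in WT, and none was called higher by limma. In WT the counts were near the shares of all tested genes. Fold changes below are differences of log2(RPKM + 0.5), tested with limma on all 12268 genes and called at an adjusted p under 0.05. In HEA, 4 of 10 genes were called lower at 4 h (Egr1, Egr2, Egr3 and Fos), where 25.5% of all tested genes were called lower, and 5 of 10 at 8 h (Egr1, Egr2, Egr3, Fosl1 and Junb), where 27.5% were. In WT, 1 of 10 was called lower at 4 h (Fosb; 14.4% of all genes) and 3 of 10 at 8 h (Egr2, Egr3 and Fosb; 20.1% of all genes). In RA, none was called by limma at either time, where 5.31% and 2.78% of all genes were called in either direction; 2 genes at 4 h and 1 at 8 h had an unadjusted p under 0.05, and limma-voom on the recovered reads also called none. In HEA, 5 of 10 genes at 4 h and 4 at 8 h had every library below every EV library, as had 26.6% and 37.0% of all tested genes; in WT, 2 and 3 did, as had 19.1% and 28.3%. The median change of the 10 genes was -0.47 in HEA at 4 h and -0.50 at 8 h, against -0.06 and -0.05 over all tested genes, and -0.22 and -0.21 in WT, against -0.01 and -0.02. The 3 forms were compared with the same 3 EV libraries at each time, so their differences from EV are not independent of each other. In these bulk samples, fewer cells expressing a gene and less of its RNA per cell cannot be told apart.

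**Figure D3:**
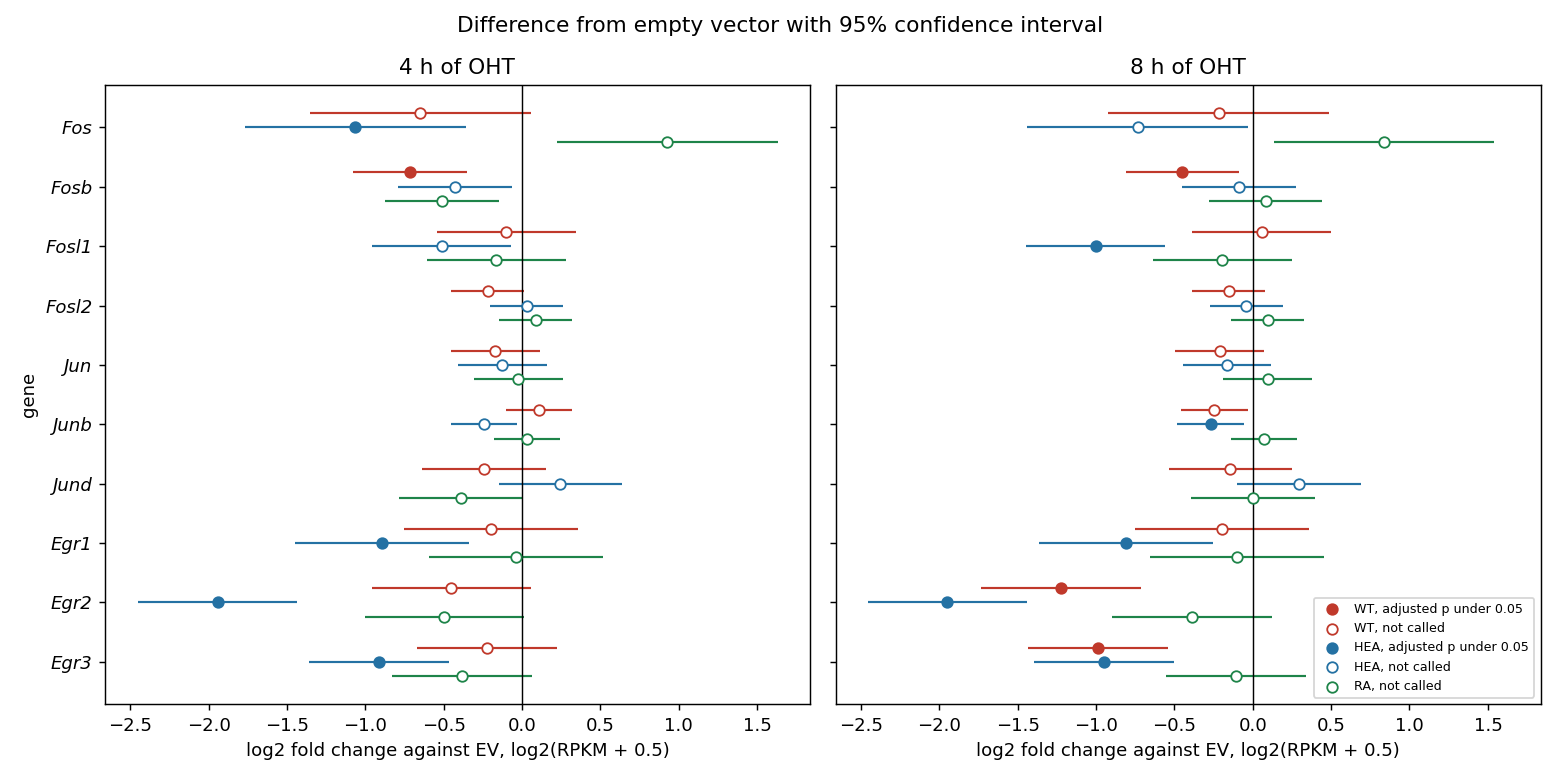
log2 fold change against EV with its 95% confidence interval for each gene (rows) in WT, HEA and RA (colours) at 4 h (left) and 8 h (right); filled points have an adjusted p under 0.05. Egr2 in HEA lies at -1.94 and -1.95, and the RA points are all open.

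Egr2, a zinc finger factor known for its roles in the hindbrain and in myelinating Schwann cells, had the lowest fold change of the 10 genes against EV, in HEA. Its 3 EV libraries stood at 8.61, 6.40 and 6.15 RPKM at 4 h and at 7.39, 9.52 and 8.54 at 8 h. The HEA libraries stood at 1.34, 1.33 and 1.69 RPKM at 4 h and at 0.836, 2.78 and 2.34 at 8 h. Every HEA library was below every EV library at both times. The fall was 1.94 on the log2 scale at 4 h (SE 0.24, limma adjusted p = 2.56e-06) and 1.95 at 8 h (adjusted p = 1.93e-06), with group means at 0.206 and 0.234 of the EV mean. At 8 h HEA replicate 1 was the lowest library. Over the 14 alternatives the difference ran from -2.21 to -1.71 at 4 h and from -2.20 to -1.55 at 8 h, and it stayed called. The authors' deposited table gives -1.99 at 4 h and -1.37 at 8 h.

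In WT, Egr2 was called against EV at 8 h and not at 4 h. At 4 h the libraries held 5.37, 5.61 and 4.05 RPKM, below every EV library, but the difference of -0.45 was not called (adjusted p = 0.182). By 8 h they held 3.29, 2.81 and 3.98 RPKM, and Egr2 had fallen by 1.22 relative to EV (limma adjusted p = 0.000572). RA libraries held 4.61, 4.11 and 5.81 RPKM at 4 h and 7.85, 5.28 and 6.13 at 8 h, with differences of -0.50 and -0.39 that were not called. At 4 h the RA libraries too were below every EV library. The share of all tested genes with this pattern in RA is not given. The authors' deposited table, made from their own fit, gives -0.32 for Egr2 in RA at 8 h with an adjusted p of 0.0439. Ordered by mean level, the 8 groups ran HEA at 4 h, HEA at 8 h, WT at 8 h, RA at 4 h, WT at 4 h, RA at 8 h, EV at 4 h and EV at 8 h; the only neighbours whose libraries did not overlap were WT at 8 h with the group on each side of it.

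Of the 10 genes, 7 had a promoter window in RefSeq (GRCm38.p6, a different build from the mm9 of the deposited files), 250 bases before to 50 after an annotated start. These windows were searched on both strands for the E-box CACGTG bound by Myc with Max, the cAMP response element TGACGTCA, its shorter core TGACG (which lies inside the full element), the AP-1 site TGANTCA, the EGR site GCGNGGGCG, TATAAA and the CArG box bound by SRF. Egr1, Egr3 and Fosl1 had no window and were not searched. Of the 7 genes searched, only Egr2 had an E-box or a CArG box within its windows. Sequence outside the windows was not searched, so a site farther from a start would be missed in any of these genes. Of 32544 promoter windows, 7.17% and 1.64% hold these. The shares are per window, and Egr2, with 5 annotated windows, had more than 1 chance of a match. Of the 5, 1 holds the E-box and the other 4 hold a CArG box, 3 of them the same box, since those windows overlap. The window with the E-box and 1 of the 3 that share a box are shown, because Egr2 had the lowest fold change, with the 250 bases up to each start and matches in capitals (the E-box in the first; the CArG box between 2 copies of the short core, the second on the reverse strand, in the other). They lie on the plus strand at chr10:67535249-67535498 and chr10:67537619-67537868. A match is a description of the letters and not evidence of binding.
Egr2, upstream start: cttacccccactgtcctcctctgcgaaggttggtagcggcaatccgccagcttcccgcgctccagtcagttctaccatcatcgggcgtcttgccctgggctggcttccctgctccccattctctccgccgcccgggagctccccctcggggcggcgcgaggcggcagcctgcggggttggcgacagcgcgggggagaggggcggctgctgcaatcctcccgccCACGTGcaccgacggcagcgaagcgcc
Egr2, downstream start: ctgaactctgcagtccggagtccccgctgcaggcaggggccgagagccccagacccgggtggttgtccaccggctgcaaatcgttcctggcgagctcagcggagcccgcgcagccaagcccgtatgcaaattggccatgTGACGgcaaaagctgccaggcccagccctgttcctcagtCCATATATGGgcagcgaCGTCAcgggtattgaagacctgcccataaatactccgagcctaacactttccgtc

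Egr3, a close relative of Egr2 known for its role in muscle spindle development, was called against EV in the same 3 comparisons. EV libraries stood at 3.18, 3.69 and 2.76 RPKM at 4 h and 3.15, 3.48 and 2.53 at 8 h. HEA libraries stood at 1.71, 1.19 and 1.51 RPKM at 4 h and 0.922, 1.75 and 1.41 at 8 h, with no overlap with EV. The fall in HEA was 0.91 (limma adjusted p = 0.00177) and 0.95 (adjusted p = 0.00114).

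WT libraries held 2.32, 3.53 and 2.27 RPKM of Egr3 at 4 h, which overlapped EV (-0.22, adjusted p = 0.473). At 8 h they held 0.944, 1.04 and 2.04 RPKM, all below EV, a fall of 0.99 (limma adjusted p = 0.00123). Replicate 3, which was the high library for the 10 genes, was also the nearest to EV here. In RA at 4 h the libraries held 2.39, 2.58 and 2.05 RPKM, each below every EV library. The share of all tested genes with this pattern in RA is not given. At 8 h the RA libraries held 3.43, 2.44 and 2.55 RPKM and overlapped EV. Neither difference of RA from EV was called.

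Egr1, the most abundant of the 3 and a classic serum response gene, was called against EV in HEA at both times and not in WT or RA. At 4 h the EV libraries held 19.9, 20.4 and 20.0 RPKM and the HEA libraries 11.2, 9.30 and 11.5, a fall of 0.89 (SE 0.27, limma adjusted p = 0.0103). At 8 h the EV libraries held 25.9, 30.0 and 24.3 RPKM while HEA libraries were spread over 7.55, 24.7 and 17.9. That fall of 0.81 (limma adjusted p = 0.017) rested on HEA replicate 1: without it the difference was -0.33 (adjusted p = 0.171), and without EV replicate 2 it was -0.72 (adjusted p = 0.0603). It was not called with only these 2 groups in the fit either (adjusted p = 0.0861). The authors' deposited table gives -0.43 with an adjusted p of 0.259 for the same comparison.

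In WT, Egr1 held 19.8, 20.5 and 12.99 RPKM at 4 h and 21.1, 19.2 and 30.7 at 8 h, overlapping EV at both times. The difference was -0.20 at each time, with 95% intervals of -0.76 to 0.35 and -0.75 to 0.36, and neither was called. At 8 h the difference between WT and EV was thus called for Egr2 and Egr3 and not for Egr1; whether the genes differ from each other was not tested.

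The sum of the 3 Egr genes was 30.4 ± 1.4 RPKM at 4 h in EV (SD, n = 3) and 13.6 ± 1.5 in HEA. At 8 h it was 38.3 ± 4.1 in EV, 20.1 ± 10.1 in HEA, 28.3 ± 7.3 in WT and 34.1 ± 1.1 in RA. Egr2 made up 22.2 ± 1.9% of the sum in EV at 8 h, 12.02 ± 1.1% in WT and 9.76 ± 0.93% in HEA, and no WT or HEA library (highest 13.02% and 10.8%) reached the lowest EV library at 20.3%. Egr1 correspondingly made up 69.9% in EV, 83.4% in WT and 82.8% in HEA, and Egr3 7.96 ± 0.76%, 4.603 ± 0.92% and 7.47 ± 2.1%. These shares are a description and were not tested.

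**Figure D4:**
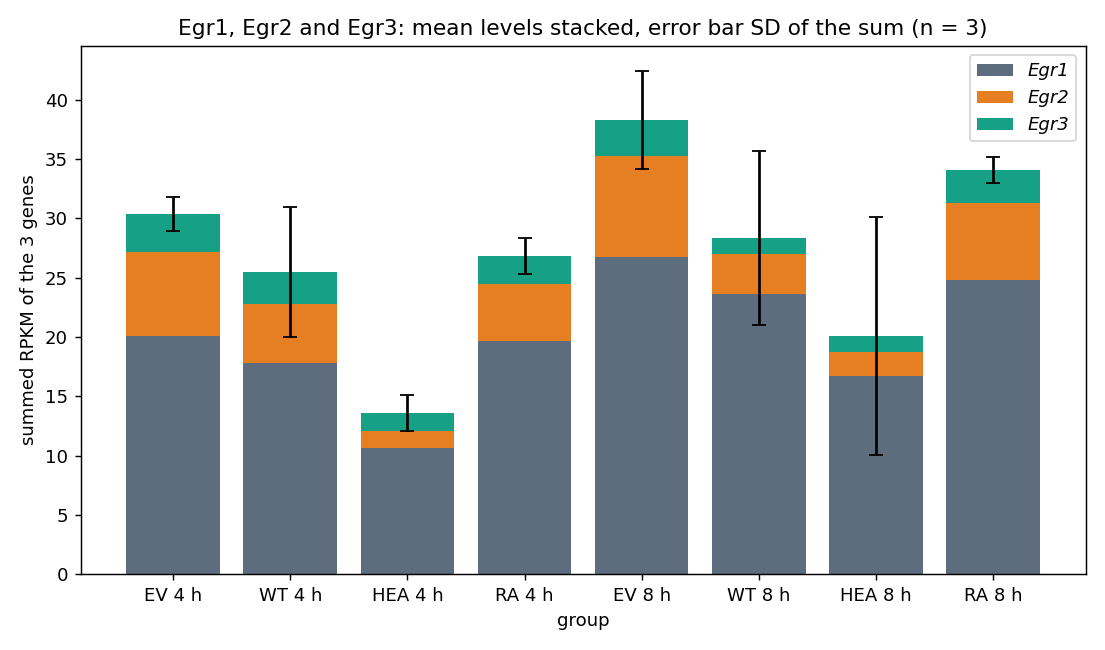
Mean RPKM of Egr1, Egr2 and Egr3 stacked for each of the 8 groups; the error bar is the SD of the summed RPKM over 3 libraries. The sum is 30.4 in EV and 13.6 in HEA at 4 h, and the Egr2 segment is short in HEA at both times and in WT at 8 h.

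The Fos family was dominated by Fosl2. Fosl2 (Fra-2) made up 80.0% of the summed Fos family RPKM of the EV cells at 4 h and 79.8% at 8 h, and 87.2% and 87.5% in HEA. Fos itself made up 5.88% and 6.88% in EV, 2.49% and 4.76% in HEA, and 10.1% and 11.8% in RA.

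Fos, which encodes the c-Fos protein that pairs with Jun proteins after stimulation, was lowest in HEA at 4 h and highest in RA. At 4 h the libraries held 5.998, 1.96 and 3.75 RPKM in EV, 0.952, 1.39 and 2.22 in HEA, 2.26, 2.39 and 1.70 in WT, and 8.74, 7.50 and 5.82 in RA. At 8 h they held 3.83, 4.94 and 5.53 RPKM in EV, 1.23, 3.20 and 4.34 in HEA, 3.08, 4.11 and 4.97 in WT, and 11.3, 7.82 and 7.72 in RA. EV was itself uneven at 4 h, spanning values found in HEA at the low end and in RA at the high end.

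Fos fell in HEA at 4 h by 1.06 (SE 0.34, limma adjusted p = 0.0151). This call was lost without EV replicate 1 (-0.73, adjusted p = 0.108), without HEA replicate 1 (-0.85, adjusted p = 0.0792) and with only the 2 groups in the fit (adjusted p = 0.0614). At 8 h the difference of -0.73 was not called (adjusted p = 0.0805), but it was without HEA replicate 3 (-1.04, adjusted p = 0.0223) and without the 3 libraries farthest from their group (adjusted p = 0.0492).

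In RA, Fos stood 0.93 above EV at 4 h (95% interval 0.22 to 1.63) and 0.84 above at 8 h (0.13 to 1.54), and limma called neither (adjusted p = 0.116 and 0.193). All 3 RA libraries at 8 h were above all 3 EV libraries, as were those of 18.2% of all tested genes. The authors' deposited table gives 0.50 at 4 h (adjusted p = 0.0451) and 0.61 at 8 h (adjusted p = 8.35e-05), both called there, where 5.36% and 15.8% of its genes with an adjusted p were called. Some alternatives gave a call here as well: leaving out EV replicate 1 at 4 h (1.26, adjusted p = 0.0449) and fitting only the groups compared at 8 h (adjusted p = 0.0264).

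The promoter window of Fos, with those of Fosb and Junb, is shown because these genes were called against EV and, like Egr2, hold the short core TGACG, which 20.9% of promoter windows hold. Fos and Junb also have TATAAA (13.6% of windows), which in Junb lies just past the bases printed, and Fosb an EGR site (5.60%). Neither the exact letters of the full cAMP response element (1.80%) nor those of the AP-1 site (7.79%) occurred in the windows of the 7 genes. Variants of these sites that differ in a letter were not counted. Capitals mark the matches, and each line is the 250 bases up to the start, 5′ to 3′ on the gene's strand: chr12:85473640-85473889 on the plus strand, chr7:19310046-19310295 on the minus strand and chr8:84978749-84978998 on the minus strand.
Fos: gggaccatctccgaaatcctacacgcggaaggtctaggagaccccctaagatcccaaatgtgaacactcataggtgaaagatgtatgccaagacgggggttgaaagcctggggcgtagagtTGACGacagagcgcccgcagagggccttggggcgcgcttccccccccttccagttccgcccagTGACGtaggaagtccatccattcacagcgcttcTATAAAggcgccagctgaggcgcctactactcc
Fosb: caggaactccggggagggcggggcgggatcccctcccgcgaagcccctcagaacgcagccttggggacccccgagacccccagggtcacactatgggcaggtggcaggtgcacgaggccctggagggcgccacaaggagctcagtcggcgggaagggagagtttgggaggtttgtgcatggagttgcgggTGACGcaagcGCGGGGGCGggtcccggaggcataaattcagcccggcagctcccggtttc
Junb: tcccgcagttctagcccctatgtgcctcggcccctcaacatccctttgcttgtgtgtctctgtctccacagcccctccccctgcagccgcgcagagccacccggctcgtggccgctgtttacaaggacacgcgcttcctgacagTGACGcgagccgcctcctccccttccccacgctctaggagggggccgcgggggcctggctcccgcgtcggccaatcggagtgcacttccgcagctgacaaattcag

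Fosb, which in neurons is known for a truncated stable form, was the only member called against EV in WT at 4 h. It passed the filter only through EV replicates 1 and 2 at 4 h and RA replicate 3 at 8 h. Calls of Fosb against EV at 4 h or RA at 8 h are thus not independent of the filter. The call in WT at 4 h was kept under all 14 alternatives, no filter among them. EV libraries held 1.09, 1.06 and 0.654 RPKM (49, 41 and 28 reads) and WT libraries 0.351, 0.319 and 0.431 (14, 12 and 16 reads), without overlap. The fall was 0.71 (limma adjusted p = 0.00454), a value that the pseudocount compresses: the WT mean was 0.392 of the EV mean, and voom on the reads gave -1.26 (adjusted p = 0.00362). At 8 h WT held 0.332, 0.352 and 0.551 RPKM against 0.932, 0.765 and 0.547 in EV, a fall of 0.45 at the edge of the threshold (limma adjusted p = 0.0497). That call was lost under 8 of 14 alternatives, among them a pseudocount of 1 (adjusted p = 0.0569), centring on library medians (adjusted p = 0.106), and leaving out EV replicate 1 or 2 or WT replicate 1 or 2, with adjusted p up to 0.199. HEA held 0.624, 0.521 and 0.530 RPKM at 4 h, a difference of -0.43 that was not called (adjusted p = 0.0527) but passed with a pseudocount of 1 (adjusted p = 0.0478), with no filter (adjusted p = 0.0392) and without EV replicate 3 (-0.58, adjusted p = 0.0195). RA held 0.373, 0.465 and 0.681 (-0.51, adjusted p = 0.0932). At 8 h HEA and RA overlapped EV.

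Fosl1 encodes Fra-1, a Fos protein that persists in growing and migrating cells, and was called against EV in HEA at 8 h. The HEA libraries held 3.84, 5.91 and 2.69 RPKM against 9.03, 8.28 and 8.00 in EV, a fall of 1.00 (limma adjusted p = 0.000679). WT at 8 h held 7.25, 9.04 and 10.3 RPKM, a difference of 0.06 from EV (95% interval -0.39 to 0.50). At 4 h HEA held 7.60, 6.21 and 4.16 RPKM against 7.86, 9.75 and 8.06 in EV; all 3 were lower, as for 26.6% of all genes, but the difference of -0.51 was not called (adjusted p = 0.0581) unless HEA replicate 1 was left out (-0.69, adjusted p = 0.0218).

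Fosl2 stood between 35.0 and 61.7 RPKM in the 24 libraries, and no comparison with EV was called. Its 95% intervals against EV were within -0.45 to 0.33 on the log2 scale in all 6 comparisons. WT replicate 3 at 4 h, at 35.0 RPKM, was the low library, where the other WT libraries at 4 h held 52.4 and 53.0.

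Among the Jun proteins, which can pair with each other as well as with Fos proteins, differences were small. Jun ranged from 38.4 to 61.0 RPKM and was not called against EV in any form, with 95% intervals between -0.49 and 0.38. Jund, which is often described as the Jun protein of resting cells, ranged from 20.3 to 42.0 RPKM. In HEA it averaged 37.1 ± 6.9 RPKM at 4 h and 33.9 ± 3.6 at 8 h, against 31.4 ± 7.2 and 27.6 ± 3.6 in EV, and was not called (0.24 and 0.29, adjusted p = 0.311 and 0.211). The authors' deposited table calls Jund higher in HEA at 8 h (0.33, adjusted p = 0.00347), and fitting only these 2 groups did so too (adjusted p = 0.0435).

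Junb, a Jun protein with weaker activation than c-Jun, fell in HEA at 8 h. Its libraries held 54.5, 60.8 and 63.3 RPKM against 74.97, 67.2 and 73.2 in EV, a fall of 0.27 (SE 0.10, limma adjusted p = 0.0349), and did not overlap. The call was lost when libraries were centred on their medians (-0.19, adjusted p = 0.161), with voom (-0.21, adjusted p = 0.0993), with no filter (adjusted p = 0.0537), and without EV replicate 1 or 3 or HEA replicate 1 or 2. In WT at 8 h the libraries held 58.4, 56.7 and 66.7 RPKM, each below every EV library, and the difference of -0.24 was not called (adjusted p = 0.0672). It was called when only these 2 groups were fitted (adjusted p = 0.0405) and without replicate 3, the library high for 10 of 10 genes (-0.31, adjusted p = 0.0364).

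Leaving out libraries moved the counts against EV. The share of all tested genes called under each such setting is not given, here or below. A moved count is thus not a result about these genes. Without the 3 libraries farthest from their group, 6 of 10 genes were called lower in WT at 8 h in place of 3, Fosl2 (-0.21), Jun (-0.34) and Junb (-0.31) being added. Without HEA replicate 1 at 8 h, 3 of 10 were called lower in HEA in place of 5. At 4 h, Fos was also called lower in WT without EV replicate 2 (-1.01, adjusted p = 0.0383), which made 2 genes in place of 1.

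WT and HEA were compared with each other to ask where the forms differ in this family. At 4 h, 4 of 10 genes were higher in WT (Egr1, Egr2, Egr3 and Junb), where 26.9% of all genes were called higher, and Jund was lower, where 22.6% were. Egr2 was 1.49 higher (5.01 ± 0.84 RPKM in WT, 1.45 ± 0.20 in HEA, limma adjusted p = 4.36e-05), Egr3 0.69 (adjusted p = 0.0117), Egr1 0.69 (adjusted p = 0.0368) and Junb 0.35 (adjusted p = 0.00766). Jund was 0.49 lower in WT than in HEA (adjusted p = 0.0379). The calls of Egr2 and Junb held in every alternative tried. The calls of Egr1, Egr3 and Jund were lost without WT replicate 2 and also without HEA replicate 2. The count of 5 dropped to 2 without HEA replicate 2. It was 3 without WT replicate 2, since Fosl2 was then called lower in WT (-0.35, limma adjusted p = 0.0205). The Egr1 call was also lost without WT replicate 1 or HEA replicate 1 (adjusted p = 0.105 and 0.0603) and with no filter (adjusted p = 0.0597). The Jund call was lost under 5 of 14 alternatives: no filter (adjusted p = 0.0601), only these 2 groups (adjusted p = 0.0618), and without WT replicate 2, HEA replicate 1 or HEA replicate 2 (adjusted p = 0.183, 0.117 and 0.145).

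At 8 h, 2 of 10 genes were higher in WT than in HEA, where 24.6% of all genes were. Fosl1 was 1.06 higher, at 8.88 ± 1.55 RPKM in WT and 4.15 ± 1.63 in HEA (limma adjusted p = 0.000329). Egr2 was 0.73 higher (adjusted p = 0.0184), which was lost without HEA replicate 1 (0.33, adjusted p = 0.184) or without WT replicate 3 (0.61, adjusted p = 0.0723), and with only these 2 groups in the fit (adjusted p = 0.11). Egr3, at 1.34 ± 0.61 RPKM in WT and 1.36 ± 0.42 in HEA, differed by -0.04 with a 95% interval of -0.48 to 0.41.

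WT and RA differed in Fos at both times. At 4 h, 2 of 10 genes were lower in WT, where 19.9% of all genes were: Fos by 1.58 (2.12 ± 0.37 against 7.35 ± 1.46 RPKM, limma adjusted p = 0.00117) and Fosl2 by 0.31 (adjusted p = 0.0395). The Fosl2 call was lost without WT replicate 3 (-0.11, adjusted p = 0.323) and without any of the 3 RA libraries. At 8 h, 5 of 10 were lower in WT, where 24.4% of all genes were: Fos by 1.05 (adjusted p = 0.0161), Egr3 by 0.88 (adjusted p = 0.00239), Egr2 by 0.84 (adjusted p = 0.00898), Fosb by 0.53 (adjusted p = 0.0179) and Junb by 0.32 (adjusted p = 0.0159). The count at 8 h fell to 2 without WT replicate 1 or RA replicate 1, the Fos call being among those lost (adjusted p = 0.0741 and 0.0772), and to 3 without WT replicate 2 or RA replicate 3. Without the 3 libraries farthest from their group the count was 7. The Egr3 call held in every alternative tried. The Fosb call is not independent of the filter, which Fosb passed in part through RA replicate 3 at 8 h. Without that library the Fosb call was lost (-0.43, limma adjusted p = 0.0909).

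Between 4 h and 8 h, changes were few. In WT, 2 of 10 genes were lower at 8 h, where 4.0% of all genes were: Egr3 by 0.83 (2.71 ± 0.72 to 1.34 ± 0.61 RPKM, limma adjusted p = 0.0213) and Junb by 0.36 (77.9 ± 6.4 to 60.6 ± 5.3 RPKM, adjusted p = 0.0331). Neither remained called without WT replicate 1 or 2 at 8 h, nor with only the WT groups in the fit, and at 4 h leaving out replicate 2 ended the call of Egr3 and leaving out replicate 1 or 3 that of Junb. Limma called none of the 10 in EV, HEA or RA, where 0.0245%, 3.33% and 0.22% of all genes were called in either direction; 0, 1 and 1 of them had an unadjusted p under 0.05, and voom called none. Without HEA replicate 1 at 8 h, Egr1 was called higher at 8 h than at 4 h in HEA (0.96, adjusted p = 0.0105).

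Whether the difference from EV itself changed with time was tested as an interaction. No member was called for WT, HEA or RA, where 0.0163%, 0.0163% and 0.0% of all genes were; 3, 0 and 1 members had an unadjusted p under 0.05 with limma. For Egr2 and Egr3 in WT, whose fall from EV was called at 8 h and not at 4 h, the interaction was -0.77 (95% interval -1.49 to -0.05, adjusted p = 0.412) and -0.76 (-1.39 to -0.13, adjusted p = 0.388).

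Genes around the listed factors were read from lists of AP-1 partners, upstream factors and kinases, other immediate early genes, feedback genes and targets. Over all tested genes, 11.6% were called higher and 14.4% lower in WT at 4 h, 15.2% and 20.1% in WT at 8 h, 17.7% and 25.5% in HEA at 4 h and 20.2% and 27.5% in HEA at 8 h, and the lists are to be read against these shares. Of 16 tested genes of the AP-1 target list, 8 were lower and 1 higher in HEA at 4 h, 9 and 1 in HEA at 8 h, 2 and 0 in WT at 4 h and 8 and 0 in WT at 8 h. The list's median was -0.35 in HEA and -0.32 in WT at 8 h, against -0.05 and -0.02 over all genes. Ereg, the growth factor epiregulin, fell in HEA by 0.68 at 4 h and 1.26 at 8 h (12.8 ± 0.76 against 31.3 ± 1.5 RPKM, adjusted p = 2.7e-08) and in WT by 0.63 at 8 h (adjusted p = 0.000202). Sphk1, a kinase that makes sphingosine phosphate, fell in WT by 1.09 at 8 h and in HEA by 0.70. In RA, 1 gene of the list was higher and 1 lower at 4 h, and 1 higher at 8 h, where 2.58% and 2.73% of all genes were called higher and lower at 4 h and 1.49% and 1.29% at 8 h.

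Upstream, the 16 ERK, JNK and p38 kinase genes had 5 higher and 5 lower in HEA at 4 h, 5 and 4 at 8 h, and in WT 2 higher and 1 lower, then 1 and 3. Mapk3, which encodes ERK1, fell in WT from 26.0 ± 3.1 RPKM in EV to 12.7 ± 2.0 at 8 h (-1.01, adjusted p = 0.00016) and in HEA to 14.9 ± 3.8 (-0.80, adjusted p = 0.000874). Rps6ka1, which encodes the ERK-activated kinase RSK1, rose by 0.78 in WT and 0.53 in HEA at 8 h. Of the 9 SRF, ternary complex and CREB factors, 4 were lower in WT at each time, and 2 then 3 in HEA, with 1 higher in HEA at each time. The ternary complex factors Elk1 and Elk3 fell in WT at 8 h by 0.57 and 0.40. In HEA at 8 h Elk3 fell by 0.30 and Elk1 was not called (-0.13). Srf was called lower in HEA at 4 h (-0.65, limma adjusted p = 0.000154) and at 8 h (-0.71, adjusted p = 4.62e-05). In WT Srf was not called at 4 h (0.06) or 8 h (0.04).

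Among 30 tested other immediate early genes, 8 were lower and 2 higher in WT at 4 h and 12 and 1 at 8 h; in HEA 8 were lower and 5 higher at 4 h and 10 and 6 at 8 h. Btg2, an antiproliferative gene, fell in WT at 8 h from 8.40 ± 0.22 to 2.95 ± 0.54 RPKM (-1.38, adjusted p = 1.3e-05) and was higher in HEA (12.2 ± 2.9 RPKM, 0.48, adjusted p = 0.0429). Tnfaip3, an inhibitor of NF-kB signalling, fell in WT by 1.11 and was not called in HEA (0.19). Both were lower in WT than in HEA at 8 h, Btg2 with a difference of -1.86 (adjusted p = 8.35e-08) and Tnfaip3 with -1.30 (adjusted p = 2.23e-07). These genes were named for their small p in WT against EV at 8 h. The comparison with HEA uses the same WT libraries and is thus not independent of that choice. Homer1, a scaffold protein, rose in HEA by 1.37 (29.1 ± 0.89 against 10.997 ± 0.71 RPKM) and in WT by 0.32.

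The NAB co-repressors, which bind Egr proteins and restrain them, were called in opposite directions in HEA. Nab1 fell in HEA by 0.71 at 4 h and 0.82 at 8 h and in WT by 0.44 at 8 h. Nab2 rose in HEA by 0.24 and 0.31 and fell in WT by 0.24 and 0.23. Egr4, the other member of that list, was not tested. Of 12 ERK feedback genes, 5 were lower and 1 higher at 8 h in both WT and HEA, and at 4 h 3 and 4 were lower with 1 higher in each; Etv5 fell by 0.90 in WT and 1.30 in HEA at 8 h, and Spry1, an inhibitor of receptor tyrosine kinase signalling, rose by 0.97 and 0.93. Among 10 tested AP-1 partner factors, 2 were higher and 2 lower in WT at 4 h and 3 and 3 at 8 h, and in HEA 5 were lower at 4 h and 2 higher and 3 lower at 8 h. Jdp2, a repressive partner of Jun proteins, fell in WT from 29.2 ± 2.7 to 13.1 ± 0.62 RPKM at 8 h (-1.12, limma adjusted p = 6.75e-09). It was not called in HEA at 8 h (-0.16, adjusted p = 0.124). At 4 h Jdp2 was called lower in both WT (-0.71, limma adjusted p = 4.6e-06) and HEA (-0.42, adjusted p = 0.000488). Batf3 rose in WT, by 1.44 at 4 h, from 0.479 to 2.14 RPKM (adjusted p = 0.00153). It averaged 1.01 RPKM over the 24 libraries and may have passed the filter only through the WT libraries, where it was high. The call of Batf3 may thus not be independent of the filter.

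**Figure D5:**
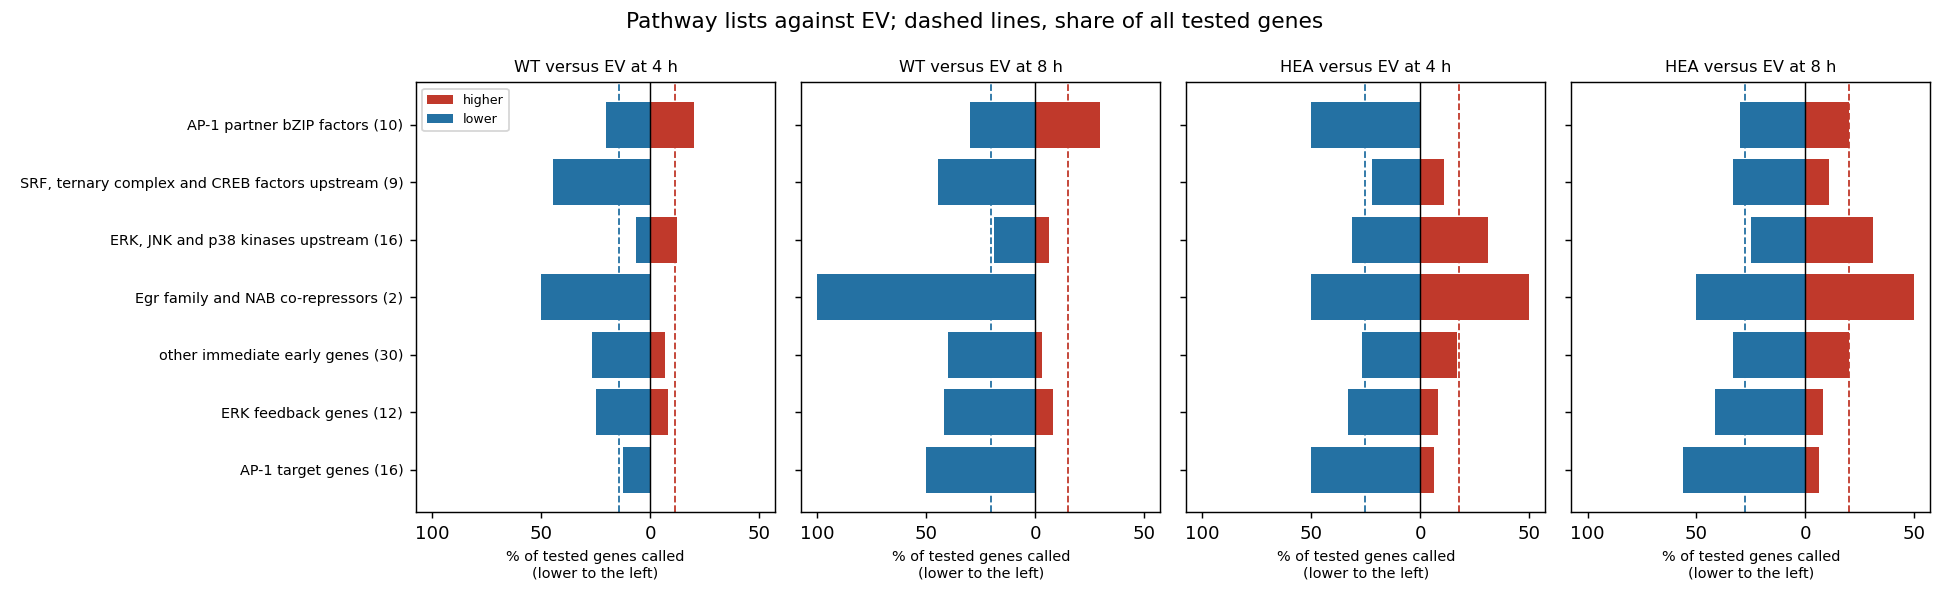
Percent of the tested genes of each pathway list (rows, number tested in brackets) called higher (right) or lower (left) against EV in WT and HEA at 4 h and 8 h; dashed lines give the same percent over all 12268 tested genes. AP-1 targets extend to the left in HEA at both times and in WT at 8 h, with 8, 9 and 8 of 16 genes called lower.

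Co-variation among the 10 genes was described without a test. Within groups, the deviations of Fosl2 and Jun followed each other (Pearson r = 0.83 over 24 libraries, which share their group means, depth and library effects), as did those of Egr1 and Egr2 (r = 0.79), Junb and Jund (r = 0.79) and Fosl1 and Jun (r = 0.75). Across the 24 libraries, the tested genes most like Egr2 in log2(RPKM + 0.5) were Eif2d (r = 0.94), Fam83h (r = 0.93) and Fam219b (r = 0.92), and those most like Fos were Trappc12 (r = 0.91), Nprl2 (r = 0.91) and Rab3gap1 (r = 0.91). Myc was the gene most like Fosl2 (r = 0.90) and Jun (r = 0.84); the sources used here do not say whether reads of the transgene count towards Myc. The nearest genes of the other members were Ctdsp1 for Egr1 (r = 0.85), Synj2 for Egr3 (r = 0.85), Tacc2 for Fosl1 (r = 0.90), Itgb3 for Fosb (r = 0.80), Lmna for Junb (r = 0.91) and Dmrta2 for Jund (r = 0.92).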

How the data were processed

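Per the file headers, the authors deposited 1 RPKM value per gene and library. A second deposited file gives the authors' own comparisons with EV: log2 fold change with its error, a test score, and a p-value with its adjusted form. It is quoted only where named and entered no test. The tools in the submitters' processing notes are featureCounts 1.4.5-p1, TopHat2 2.0.8, TopHat, DESeq2 and SAMtools, and the build is mm9. The strand setting and annotation are not stated there. RNA came from a stranded total RNA kit, per the labels.

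Genes reaching 1 RPKM in 3 or more libraries (12268 of 21671) were tested with limma 3.58.1 in R 4.3.3 on log2(RPKM + 0.5). The fit held 8 group means (16 residual degrees of freedom), with Benjamini-Hochberg adjustment per comparison over all tested genes and 0.05 as the threshold. There were 14 comparisons and 3 time interactions, and the test was checked on simulated data. Whole reads were recovered from the steps of the RPKM values: in 17870 of 17870 genes with a value above 0, each value lay within 0.01 read of a whole number. Totals were 9.82 to 12.8 M reads. A fold change on the log2(RPKM + 0.5) scale is too small for genes near the pseudocount.

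The members and lists were chosen with earlier results of these data known. Srf was named outside the rule that follows. Named were the 10 members; in each list, the 2 genes of smallest p for WT at 8 h and at most 1 called gene going the other way; the 3 tested genes most like each member, with only the first printed for 8 of them; and Esr1. Alternatives were pseudocounts of 0.1 and 1, no filter, centring on library medians, voom on recovered reads, the replicate number as a block, fits of the compared groups alone, each library left out, and, chosen after seeing the data, leaving out the 3 libraries farthest from their group. Other steps used Python 3.11.15, numpy 2.4.6, pandas 2.3.3 and matplotlib 3.10.9.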

Additional observations from a re-analysis of the deposited data

How the results depend on the processing

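Of 29 called pairs of gene and comparison, 14 kept the call under every alternative tried and 15 lost it under at least 1; of the other 141, 18 gained a call under at least 1, and of 170 pairs 0 reversed a called sign. The cause of these changes was not tested, and the share of all tested genes called under each alternative is not given. The count of genes called went from 5 to 3 without the filter for WT against HEA at 4 h, from 2 to 1 for WT against RA at 4 h (no filter, median centring, voom, only the compared groups, or without the 3 farthest libraries), and from 3 to 6 for WT against EV at 8 h without the 3 farthest libraries. With only the compared groups it went from 0 to 1 for RA against EV at 8 h, from 2 to 1 for WT against HEA at 8 h and from 2 to 0 for 8 h against 4 h in WT, where no filter and leaving out the 3 farthest libraries each gave 1. Leaving out each library in turn gave 1 to 2 genes for WT and 0 to 1 for RA against EV at 4 h and 3 to 6 for HEA against EV at 4 h and at 8 h; 2 to 4 for WT against EV at 8 h; 2 to 5 and 1 to 3 for WT against HEA at 4 h and 8 h; 1 to 2 and 2 to 6 for WT against RA; and 0 to 2 and 0 to 1 for 8 h against 4 h in WT and in HEA.

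The replicate numbers did not pair the samples: the deviations of same-numbered libraries correlated over 0.1 in 30 of 84 pairs (median 0.023), and in 0 of 14 compared pairs of groups for all 3 numbers. With the replicate block, 1 call changed, Fosb in WT against EV at 8 h (-0.45, adjusted p = 0.062), leaving 2 genes in place of 3. A planned count model on recovered reads was not run, and voom was run on these reads instead. Depth limits Fosb most, with 12 to 49 reads per library.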
